A study of Rattus norvegicus with 4 samples.

Results

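Complement is a protein cascade of innate immunity, and the genes described here are 9 of its components and regulators: C1qa, C1qb, C1qc, C1r, C1s, C3, Serping1, Cd55 and Cd59. They were followed on 4 expression arrays of rat hippocampal tissue, out of 14217 genes that the array names. Members were taken by symbol from the platform annotation, where each of the 9 had a probe set that names it alone. Cd59 is listed there as Cd59b, of which Cd59 is a synonym in the RefSeq gene table. Each member is represented by the probe set with the highest mean intensity, and only Cd55 had a second one.

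In the classical pathway, C1q binds to targets such as antibodies, cell debris or synapses, and its associated proteases C1r and C1s then start a cascade that converges on C3. Fragments of C3 tag surfaces for phagocytes, and the cascade can end in a pore through the membrane. Serping1 (C1 inhibitor) blocks C1r and C1s, Cd55 (decay-accelerating factor) speeds the breakdown of the enzymes that cleave C3, and Cd59 stops assembly of the pore. In brain, microglia are the main source of C1q, while C3, C1r, C1s and Serping1 are also made by astrocytes, vascular and meningeal cells.

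The arrays hold RNA from the CA3 area of Sprague-Dawley rats, removed 24 h after an injection into the hippocampus. One group received PBS, the vehicle, and another kainic acid (KA), an excitotoxin that activates kainate receptors and kills neurons by overexcitation. A further group received KA with NAP, a short neuroprotective peptide derived from the protein ADNP, at a concentration the series text writes as 10-13M, and the last NAP alone. Each group had 1 array, and the labels give neither the animals' age nor whether animals were pooled, so every value below is a single measurement and no test between groups was made.

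Median intensities over all probe sets ran from 58 to 65, and log2 intensities of 9489 genes correlated between arrays at 0.91 to 0.98. The RNA integrity measure of the array, the 3′ to 5′ intensity ratio of beta-actin, ran from 7.92 on the NAP array to 15.5 on the KA+NAP array. Markers of CA3 pyramidal cells were present, with 3 of 3 past the intensity filter described next, but so were 3 of 3 CA1 markers and the dentate granule cell gene Prox1 (747 to 1194). The CA1 markers were uneven between arrays: on PBS, KA, KA+NAP and NAP, Fibcd1 stood at 368, 72, 226 and 86, Pou3f1 at 376, 84, 450 and 179, and Wfs1 at 145, 62, 129 and 96. All 3 were higher on the PBS and KA+NAP arrays than on the KA and NAP arrays. The CA3 markers were uneven too. Grik4 stood at 407, 365, 191 and 325 and Cpne4 at 918, 619, 427 and 886, both lowest on KA+NAP. Coch stood at 107, 69, 72 and 201, lowest on KA.

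Intensities are MAS5 signals on a linear scale. Differences are in log2(intensity + 10), which understates the differences of dim genes. A gene entered the comparisons when its probe set had a mean intensity above 62.75, which was the median of such means. All 9 members passed, although Cd55, with a mean of 68, lay just above that limit and was above it on the NAP array alone. Differences are counted from 2-fold upwards, a chosen size and not a test.

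Of the 9 members, 5 matched an entry in the RefSeq promoter table (build GRCr8): C1qa, C1qb, C1r, C3 and Cd55. The 250 bases before the start of C3 are shown because C3 differed most between the NAP and PBS arrays. Those of C1qa and C1qb are shown because these genes encode chains of the same protein yet differed in opposite directions between KA and PBS. They lie at chr9:2201340-2201589, chr5:154419934-154420183 and chr5:154407828-154408077, each on the minus strand, and are written 5′ to 3′ along the gene. Capitals mark the motif matches.
C3: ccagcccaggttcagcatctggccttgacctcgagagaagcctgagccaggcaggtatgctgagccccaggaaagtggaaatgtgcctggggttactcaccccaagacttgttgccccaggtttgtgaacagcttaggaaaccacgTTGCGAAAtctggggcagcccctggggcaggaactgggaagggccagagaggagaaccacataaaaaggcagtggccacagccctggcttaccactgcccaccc
C1qa: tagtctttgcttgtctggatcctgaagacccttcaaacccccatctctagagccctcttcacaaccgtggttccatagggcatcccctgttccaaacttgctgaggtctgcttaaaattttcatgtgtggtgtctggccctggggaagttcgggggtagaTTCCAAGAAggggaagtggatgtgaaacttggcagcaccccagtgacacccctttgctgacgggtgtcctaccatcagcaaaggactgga
C1qb: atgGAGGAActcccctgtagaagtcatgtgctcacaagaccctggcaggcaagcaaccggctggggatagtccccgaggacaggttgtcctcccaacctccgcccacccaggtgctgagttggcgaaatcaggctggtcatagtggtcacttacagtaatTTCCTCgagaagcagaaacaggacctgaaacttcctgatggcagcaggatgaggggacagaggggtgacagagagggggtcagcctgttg
Motifs were searched on both strands as GAGGAA (the core bound by PU.1 and other ETS factors), TTCNNNGAA (the GAS element of STAT factors), GAAA, any 2 bases and GAAA again (the interferon-stimulated response element), GGGA, any 2 bases and TTCC (NF-kB) and TTGCNNAA (C/EBP). C3 held 1 C/EBP match, beginning 104 bases before the start, and 9.22% of all promoters in the table hold that motif. C1qa held 1 GAS match beginning 90 bases before the start, a motif found in 7.67% of promoters. C1qb held 2 ETS core matches, beginning 247 and 90 bases before the start, the second on the opposite strand, and this short motif occurs in 23.3% of promoters. The C1r window held 1 C/EBP match and 1 ETS core match, and the Cd55 window none of the motifs. The matches did not overlap each other. They are letters found in these windows and say nothing about binding.

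The comparison of KA with PBS asks how the toxin alone bears on complement transcripts after a day. None of the 9 members was at least 2-fold higher or lower on the KA array, against 4.91% of all 9489 genes higher and 2.39% lower. The members' median log2 difference was 0.13, and that of all genes 0.02. C3 was the highest at 0.71, and C1qa the lowest at -0.71.

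**Figure D1:**
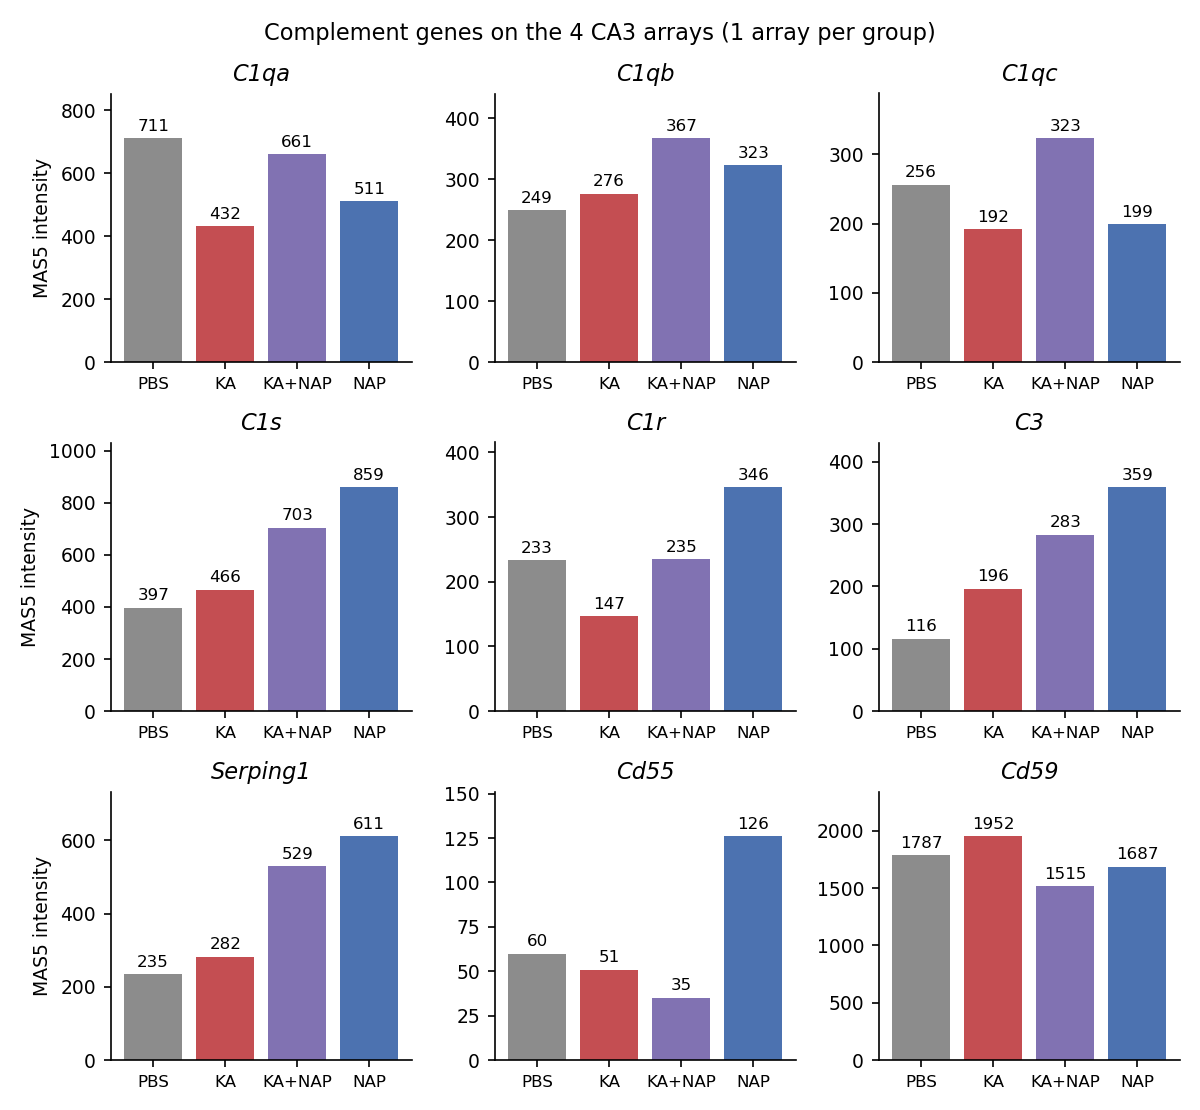
MAS5 intensity (vertical axis, linear, from 0) of each of the 9 complement genes on the PBS, KA, KA+NAP and NAP arrays; each bar is 1 array and its value is printed above it. C1s, C3 and Serping1 step down from NAP through KA+NAP and KA to PBS, while C1qa, C1qc and C1r were lowest on the KA array.

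C1q is assembled from the products of C1qa, C1qb and C1qc, which lie side by side on chromosome 5 in the RefSeq gene table. C1qa had an intensity of 711 with PBS, 432 with KA, 661 with KA+NAP and 511 with NAP. C1qc stood at 256, 192, 323 and 199 in the same order of arrays. Both were lowest on the KA array, as C1r was, where 23.5% of all genes had their lowest value. Both were also lower with NAP than with PBS. C1qb took another order, at 249 with PBS, 276 with KA, 367 with KA+NAP and 323 with NAP, so its lowest value was on the PBS array.

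In log2 terms the KA minus PBS difference was -0.71 for C1qa, -0.40 for C1qc and 0.14 for C1qb. In KA+NAP minus NAP, the differences were 0.37, 0.67 and 0.18, all above 0. The chains thus did not move as one unit between PBS and KA, but they were all higher on the KA+NAP array than on the KA array, by 0.60 for C1qa, 0.72 for C1qc and 0.40 for C1qb. No chain reached 2-fold in any of these comparisons, and the mean of the 3 chains was -0.32 in KA minus PBS and 0.41 in KA+NAP minus NAP. In bulk tissue, fewer cells of a type and less RNA per cell cannot be told apart. The CA1 markers Fibcd1, Pou3f1 and Wfs1 were, like C1qa and C1qc, higher on the PBS and KA+NAP arrays than on the other 2, and the part of tissue make-up in the C1q values was not tested.

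Markers of microglia and macrophages were set beside the C1q chains. Of 17 listed genes, 16 were on the array, none was at 0 on any array, and their summed intensity was 7076 with PBS, 4786 with KA, 9507 with KA+NAP and 6821 with NAP. Without the 2 brightest genes, Ctss and Fcer1g, the other 14 summed to 2874, 1969, 4248 and 3069, still lowest on the KA array. Ctss and P2ry12 were the 2 genes that lost most intensity from PBS to KA. Without these 2, a choice that itself favours a change of order, the other 14 summed to 2228, 2452, 5745 and 2941, lowest on the PBS array. In KA minus PBS the median of the 14 markers past the filter was 0.12. By 2-fold or more, 4 of them were higher and 3 lower, against 4.91% and 2.39% of all genes. The list was spread from P2ry12, a purinergic receptor of resting microglia, at -2.16 to Cybb, an NADPH oxidase subunit of activated phagocytes, at 1.73. C1qa at -0.71 and C1qc at -0.40 lay between these ends, near the lysosomal protease Ctss at -0.84, the growth factor receptor Csf1r at -0.47 and the lysosomal membrane gene Laptm5 at -0.40, genes picked here after their values were seen. In KA+NAP minus KA all 14 markers were above 0, where 53.8% of all genes were, with a median of 1.01. Of the 14, 8 were at least 2-fold higher, against 1.52% of all genes, while none of the C1q chains was. The part of microglial number or state in the C1q values was not tested.

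**Figure D2:**
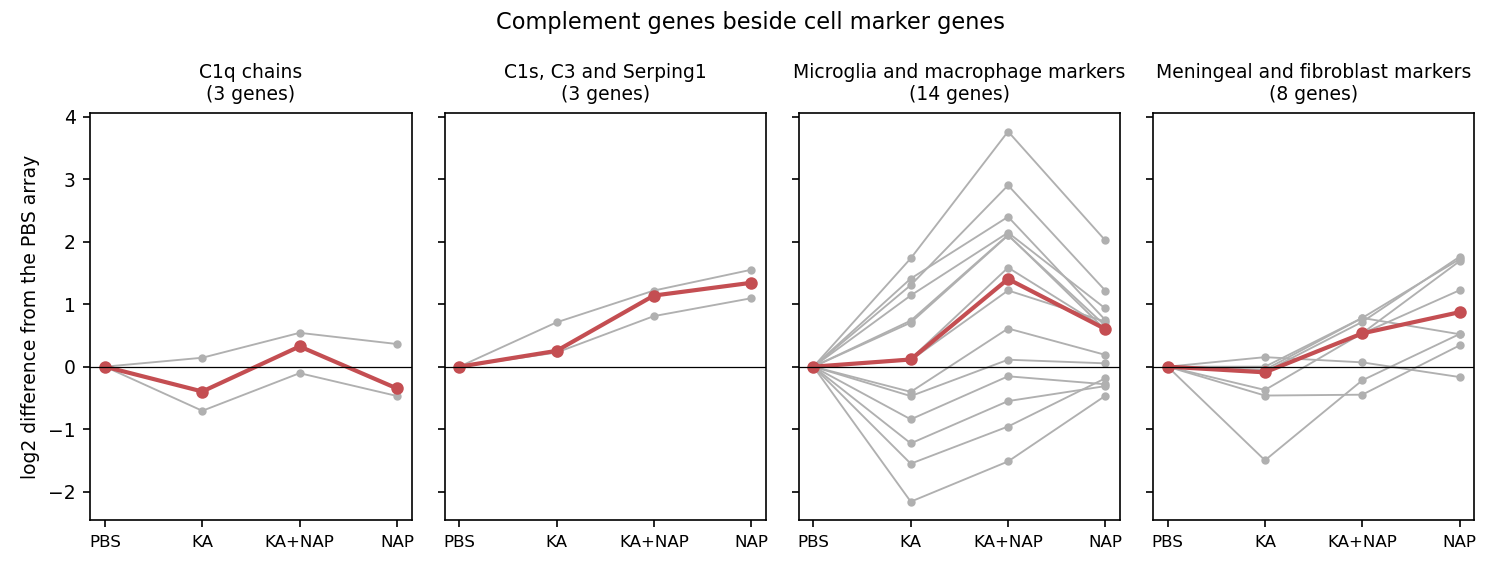
Log2 difference from the PBS array (vertical axis) on the PBS, KA, KA+NAP and NAP arrays for the C1q chains, for C1s, C3 and Serping1, and for microglia and meningeal markers past the filter; grey lines join the values of 1 gene and red the group median. The C1q chains spanned a narrower range than the 14 microglia and macrophage markers, and C1s, C3, Serping1 and most of the 8 meningeal markers were highest on the NAP array.

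C1r and C1s are the proteases carried by C1q, and their genes are neighbours on chromosome 4 in the RefSeq table. C1s had an intensity of 397 with PBS, 466 with KA, 703 with KA+NAP and 859 with NAP. Both arrays with NAP thus lay above both without it. C1r had 233 with PBS, 147 with KA, 235 with KA+NAP and 346 with NAP. It was highest with NAP like C1s, but its KA+NAP value equalled the PBS value to within 2 intensity units, and its KA value was the lowest. NAP minus PBS was 1.09 for C1s, a 2.14-fold difference, and 0.55 for C1r. KA minus PBS was 0.23 for C1s and -0.63 for C1r, so the neighbouring genes differed in sign there.

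C3, the component on which the activating pathways converge, had an intensity of 116 with PBS, 196 with KA, 283 with KA+NAP and 359 with NAP. The NAP array was 2.93-fold above the PBS array (log2 difference 1.55), and the KA+NAP array 2.33-fold above it (1.22). KA alone was 1.63-fold above PBS, and KA+NAP lay below NAP by 0.33 (a log2 difference of -0.33). The highest C3 value thus came from a group that had no KA.

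Serping1, which inhibits C1r and C1s, had an intensity of 235 with PBS, 282 with KA, 529 with KA+NAP and 611 with NAP. Its NAP minus PBS difference was 1.34 (2.53-fold) and its KA+NAP minus KA difference 0.88 (1.85-fold). The separation of the 2 arrays with NAP from the 2 without was wider than for any other member, since the lower NAP array stood at 529 and the higher array without NAP at 282. KA minus PBS was 0.25 and KA+NAP minus NAP -0.20.

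NAP was compared with PBS to describe the peptide without KA, in tissue that had received an injection in both groups. This comparison shares the PBS array with KA minus PBS. In it, 3 of 9 (C1s, C3 and Serping1) were at least 2-fold higher, against 1.05% of all genes, and none was at least 2-fold lower, against 0.242%. The members' median was 0.55 and that of all genes 0.02. C1qa and C1qc were below 0, at -0.47 and -0.35, and C1qb was at 0.36, so no C1q chain was among the 3. Cd55, at 0.96, lay just under 2-fold. The NAP array also had the lowest beta-actin 3′ to 5′ ratio, 7.92 against 11.4 to 15.5 on the others, but not the lowest GAPDH ratio, 1.40 against 1.31 to 1.56. The part of RNA quality in these values was not tested. In KA+NAP minus PBS, which shares the PBS array, C3 and Serping1 were again at least 2-fold higher, against 7.41% of genes, C1s was at 0.81, and no member was at least 2-fold lower, against 2.11%.

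The same 3 genes shared 1 order of arrays, NAP above KA+NAP above KA above PBS, which 1.61% of all genes followed. This pattern and the next were noticed in the values and are given as descriptions. For 5 members (C1qb, C1r, C1s, C3 and Serping1) both arrays with NAP lay above both without, against 10.0% of genes. C1r belongs to them by 235 against 233. Cd59 was the 1 member with both NAP arrays below both others, against 8.01%.

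**Figure D3:**
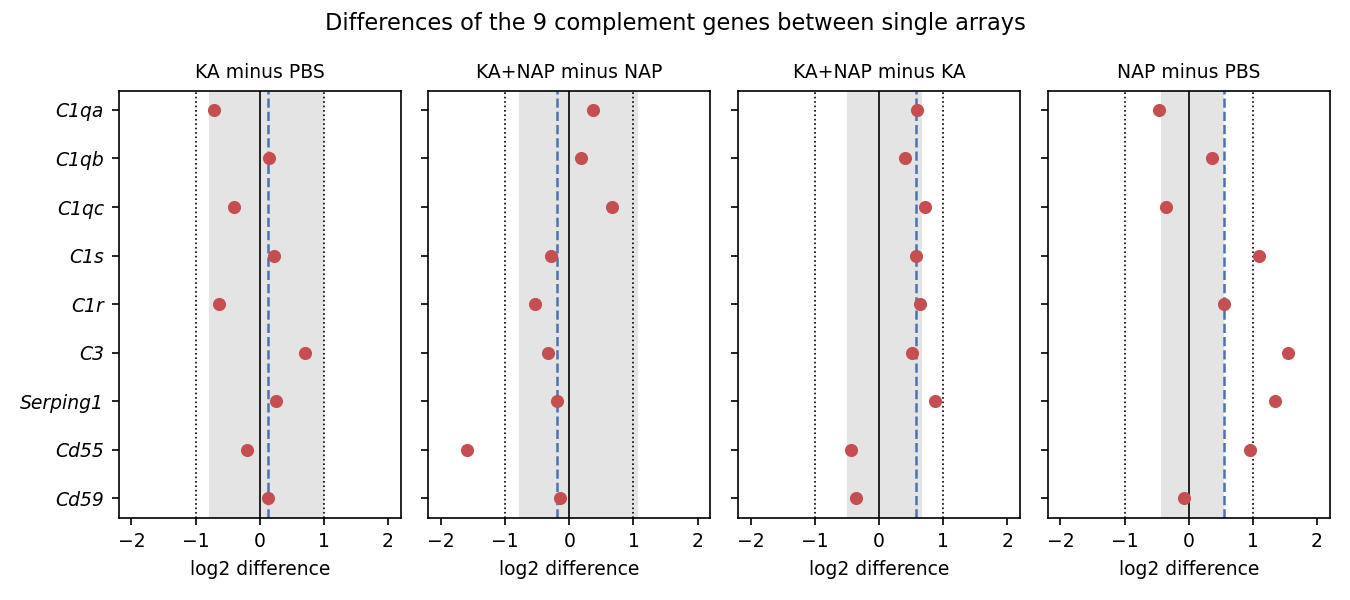
Log2 differences of the 9 complement genes (red points) in 4 comparisons of single arrays; the grey band holds the central 90% of all 9489 genes, the dotted lines mark 2-fold and the dashed blue line the members' median. In NAP minus PBS the points of C1s, C3 and Serping1 lie beyond 2-fold, while in KA minus PBS all 9 lie inside the dotted lines.

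Markers of other cell types were also high on 1 or both arrays with NAP. Of the meningeal, endothelial, myeloid and blood lists, only the blood genes summed to the order of the 3 members across all 4 arrays. Their sums were 119 with PBS, 224 with KA, 1594 with KA+NAP and 1618 with NAP. No single blood gene had this order, since Hbb and Alas2 were higher on KA+NAP than on NAP and Alb was lowest on KA+NAP. The endothelial gene Flt1 did have it (104, 124, 158 and 181). Of the 10 meningeal and fibroblast markers, none was at 0, and their summed intensity was 1953 with PBS, 1519 with KA, 1973 with KA+NAP and 3239 with NAP. In NAP minus PBS the 8 past the filter had a median of 0.87, with 4 at least 2-fold higher, against 1.05% of all genes. The matrix gene Ogn was highest at 1.76 (63 to 237), and Lum, another matrix proteoglycan, lowest at -0.17. In KA minus PBS their median was -0.09, against 0.02 over all genes, with 1 of 8 above 0. C1s, C3 and Serping1 were all above 0 there. In KA+NAP minus NAP the meningeal median was -0.76, beside -0.29 for C1s, -0.33 for C3 and -0.20 for Serping1. The haemoglobin gene Hbb had an intensity of 5 with PBS, 186 with KA, 1549 with KA+NAP and 1430 with NAP, so it was high on both arrays with NAP. Alb, the plasma protein gene that also passed the filter, was at 111, 28, 11 and 168, lowest on KA+NAP. Endothelial markers had a summed intensity of 2500, 2401, 3212 and 3313 on PBS, KA, KA+NAP and NAP. In NAP minus PBS 7 of 7 past the filter were above 0, with a median of 0.39. The median over all genes was 0.02 there, and their share above 0 was not computed. Infiltrating and border myeloid markers summed to 569, 1504, 3254 and 1151, higher with KA than with NAP. Of that sum, Fn1 alone gave 290, 994, 2274 and 683. S100a8, S100a9, Mmp9 and Ccr2 were likewise higher with KA than with NAP. Mrc1 (62, 34, 128 and 111) and Lyve1 (137, 52, 176 and 196) went the other way, lowest on KA. So did Cd163, below the filter, at 10, 4, 17 and 22. For each of these, both arrays with NAP lay above both without, as in 10.0% of all genes. Choroid plexus markers summed to 1471, 1623, 936 and 1680 on PBS, KA, KA+NAP and NAP, lowest on KA+NAP. None of the endothelial, blood, myeloid or choroid plexus genes was at 0. The astrocyte genes Gfap and Vim were at 5744 and 851 with PBS and at 8065 and 1588 with NAP. The 10 astrocyte markers had a median of 0.07 in NAP minus PBS, against 0.02 over all genes, with 6 above 0. The part of blood, meningeal, vascular, myeloid or astrocyte RNA in the C1s, C3 and Serping1 values was not tested.

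KA+NAP was compared with KA for the peptide's effect in injured tissue. 7 of 9 members were above 0, where 53.8% of all genes were, and their median was 0.58 against 0.03 over all genes. None was at least 2-fold higher, against 1.52% of genes, or at least 2-fold lower, against 0.601%. The values of the 7 ran from 0.40 for C1qb to 0.88 for Serping1, so effector genes and the inhibitor gene Serping1 were all higher, by less than 2-fold. The exceptions were the membrane regulators, Cd55 at -0.44 and Cd59 at -0.36.

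KA+NAP was compared with NAP for the toxin's effect where the peptide was present. The members' median was -0.20, against 0.03 over all genes. None was at least 2-fold higher, against 5.66% of genes, and 1, Cd55, was at least 2-fold lower, against 2.41%. Cd55 exceeded the filter limit on the NAP array alone, so this count rests on the array where it was high. Only the C1q chains, 3 of 9 members, were above 0, where 52.3% of all genes were. For 6 members (C1qa, C1qc, C1s, C3, Serping1 and Cd59) the KA difference had opposite signs without and with NAP, against 28.1% of genes. No member had both KA arrays above both arrays without KA, a pattern that 32.3% of all genes had, and Cd55 was the 1 member with both below, against 28.7%.

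Cd55 protects host cells early in the cascade. Its intensity was 60 with PBS, 51 with KA, 35 with KA+NAP and 126 with NAP. The NAP array stood above the other 3, and the -1.60 of KA+NAP minus NAP (3.02-fold lower) rests on that value and on dim signal. The second Cd55 probe set was dimmer, at 13, 5, 3 and 15, with the same order of arrays. Its NAP minus PBS difference was 0.12, against 0.96 for the probe set used, so it did not show the NAP array standing apart. Cd59, the late regulator, had an intensity of 1787 with PBS, 1952 with KA, 1515 with KA+NAP and 1687 with NAP. Its highest value was 1.29-fold above its lowest, the narrowest range of the 9 members.

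Other complement genes were taken from a list of 39, of which 30 were on the array and 11 past the filter. In KA minus PBS, 4 of the 11 were at least 2-fold higher and 1 lower, where 4.91% and 2.39% of all genes were. The counts were 3 and 1 in KA+NAP minus NAP, against 5.66% and 2.41% of all genes, and 2 and 0 in KA+NAP minus KA, against 1.52% and 0.601%. In NAP minus PBS they were 2 and 0, against 1.05% and 0.242%. Fcnb, which passed the filter only through the KA arrays, is among the higher genes in the first, second and last of these comparisons. The genes past 2-fold with KA were receptors, a ficolin and a regulator.

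Receptors led this group. C5ar1, the receptor for the C5a anaphylatoxin, had an intensity of 51 with PBS, 116 with KA, 323 with KA+NAP and 121 with NAP. It was at least 2-fold apart in all 4 comparisons, at 1.05 in KA minus PBS, 1.35 in KA+NAP minus NAP, 1.40 in KA+NAP minus KA and 1.10 in NAP minus PBS. KA and NAP alone thus gave like values and the combination the highest. Cd93, an endothelial and myeloid receptor first described through C1q, was at 93, 329, 344 and 160 on the PBS, KA, KA+NAP and NAP arrays, and Itgb2, the beta chain of complement receptors 3 and 4, at 142, 354, 448 and 238. Both were highest on the 2 arrays with KA. Itgam, the alpha chain of complement receptor 3, was at 56, 62, 188 and 91, and differed by 1.46 in KA+NAP minus KA but by 0.13 in KA minus PBS. Itgam is also on the microglia list, and Itgb2 and C5ar1 are expressed by the same cells.

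**Figure D4:**
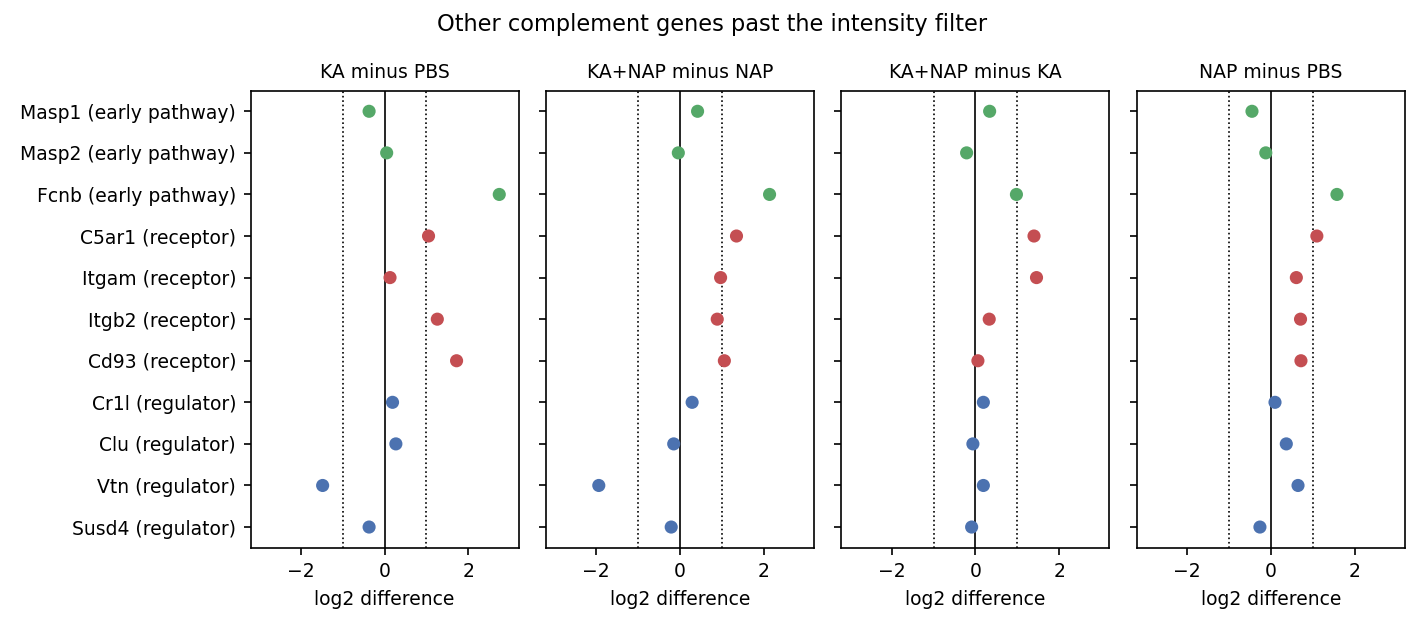
Log2 differences of the 11 other complement genes past the intensity filter in 4 comparisons of single arrays, coloured by role (green early pathway, red receptors, blue regulators); dotted lines mark 2-fold. Receptors lie to the right in most panels, and the regulator Vtn lies to the left in both comparisons of KA with an array without it.

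Among recognition proteins, Fcnb, a ficolin of neutrophils and monocytes, had an intensity of 3 with PBS, 77 with KA, 162 with KA+NAP and 29 with NAP. It passed the filter through the KA arrays alone, so its differences of 2.74 and 2.14 from the arrays without KA depend on the constant of 10. Vtn (vitronectin), an inhibitor of the membrane pore that is also made by pericytes, was at 171 with PBS, 55 with KA, 64 with KA+NAP and 274 with NAP. Its log2 difference was -1.48 in KA minus PBS and -1.94 in KA+NAP minus NAP, the reverse of the receptors. The regulators Clu (clusterin), at 4470 to 5765, and Cr1l (Crry, the rodent inhibitor of C3 cleavage), at 463 to 609, did not reach 2-fold in any comparison, nor did the lectin pathway proteases Masp1 and Masp2. None of the 6 terminal pathway genes on the array passed the filter. Their summed intensity was 74 to 89.

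Likeness of pattern was measured as the root mean square distance between mean-centred log2 profiles over the 4 arrays, where 0 is identity. The genes nearest to C3 were Cp (ceruloplasmin, a copper-carrying plasma protein, distance 0.136), Il10ra (0.143), Slc6a20a (0.151), Pf4 (0.206) and Aebp1 (0.235). Cp had intensities of 214 with PBS, 287 with KA, 422 with KA+NAP and 631 with NAP, the order of C3, C1s and Serping1. The mean profile of the C1q chains was flatter, and its nearest genes were Mical3 (0.019), Abcd4 (0.026), Net1 (0.026), Cmss1 (0.029) and Gtpbp3 (0.033). That mean pools C1qb with C1qa and C1qc, which took other orders of arrays. A short distance from it is thus not likeness to each chain. With 4 arrays such distances describe these arrays only.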

How the data were processed

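Expression was measured in rat hippocampal tissue on 4 Affymetrix arrays. Per the labels' protocols, each sample's 500 ng of total RNA passed 2 amplification rounds, which favours 3′ ends. The values used are intensity values deposited by the authors. Per the submitters' processing notes they are MAS5 signals. For the MAS5 version and settings, the sources used here give nothing. The deposited intensities are linear whole numbers, with a trimmed mean of 250.1 on every array.

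Of 31099 probe sets, 20826 had 1 gene symbol, 436 several, 9780 were not listed and 57 were controls. Symbols were updated through Entrez identifiers to GRCr8 (20758 matched). With Python 3.11.15, pandas 2.3.3 and numpy 2.4.6, log2(intensity + 10) was computed, genes were filtered at the median probe-set mean (62.75), and differences were formed. The computation was tested on simulated data. With 1 array per group no p-value was computed.

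Members, gene lists and alternatives were chosen with earlier results of these data known. Region markers were listed after the table was seen. Named genes were all members, listed genes at least 2-fold apart past the filter, the extremes of a marker list, and the 5 nearest profiles, apart from those said to be chosen later. Receptors and regulators that stayed under 2-fold, Gfap, Alb, and listed genes below the filter, were named after their values were seen. The alternatives were pseudocounts of 1 and 50, quantile normalization, the mean over probe sets, no filter, and a filter at the 75th percentile.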

Additional observations from a re-analysis of the deposited data

Results flagged for a closer look

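For 6 of 9 members the KA difference had opposite signs without and with NAP, against 28.1% of all genes past the filter. This comparison of single arrays was not tested. C1qa was at -0.71 without NAP and 0.37 with it, so the KA difference was 1.07 higher with NAP. C1qc was at -0.40 and 0.67, also 1.07 higher. C3 moved the other way, from 0.71 to -0.33, a change of -1.04. The changes of C1s (-0.51), Serping1 (-0.46) and Cd59 (-0.28) were smaller. C1qa and C1qc thus changed in the opposite direction to the other 4. The CA1 markers Fibcd1 (368, 72, 226 and 86 on PBS, KA, KA+NAP and NAP), Pou3f1 (376, 84, 450 and 179) and Wfs1 (145, 62, 129 and 96) also were lower with KA than with PBS and higher with KA+NAP than with NAP. Their part in the C1q values was not tested.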

How the results depend on the processing

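No paired analysis was possible because each group has 1 array. Over 6 alternatives, none of the 36 differences of single members changed sign, and all 200 alternative values of single members stayed within 1.5-fold of the value reported. Much of this was fixed in advance. The 2 filter settings leave a member's values as they are, and the mean over probe sets can alter only Cd55. A pseudocount cannot change the sign of a difference from 1 probe set. Signs could thus change only with quantile normalization, or for Cd55 with the mean over probe sets. The members' medians also stayed within 1.5-fold. The count of members at least 2-fold higher in NAP minus PBS ran from 2 to 4 (2 of the 5 members left with the filter at the 75th percentile, 4 with a pseudocount of 1). That filter also left 3 members with both NAP arrays above the others, and 0 at least 2-fold lower in KA+NAP minus NAP, because fewer genes were tested. With quantile normalization, where all 9 members were tested, 4 had both NAP arrays above the others, against 5 in the main setting. The count of other complement genes that differed by 2-fold or more was, in KA minus PBS, 8 with no filter and 1 with the stricter filter. It was 7 and 0 in KA+NAP minus NAP, 5 and 0 in KA+NAP minus KA, and 5 and 0 in NAP minus PBS, where a pseudocount of 50 also gave 0. The 2 genes counted in NAP minus PBS in the main setting were dim. They were Fcnb (3 to 29) and C5ar1 (51 to 121), whose differences shrink with a larger constant. Signal over background was not examined, since detection calls were not used here. Cd55, Fcnb, Il10ra and Pf4 lay close above the filter, and Itgax and C3ar1 below it.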

Other observations

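A further list held genes of proteins that carry a C1q domain but are not complement components. Of 15 listed, 11 were on the array and 6 past the filter. Cbln1, a secreted organiser of synapses, had an intensity of 30 with PBS, 521 with KA, 85 with KA+NAP and 82 with NAP, so the KA array stood alone. C1ql3, a synaptic C1q-like protein, was at 599, 379, 456 and 1000 in that order, with a log2 difference of -1.12 in KA+NAP minus NAP. The other 4 past the filter stayed under 2-fold in the 4 comparisons.

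Of complement genes below the filter, Itgax, the alpha chain of complement receptor 4, had an intensity of 1 with PBS, 84 with KA, 115 with KA+NAP and 20 with NAP. C3ar1, the receptor for the C3a fragment, was at 11, 18, 47 and 20.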
